A study of Homo sapiens with 30 samples.

Results

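To ask where H3K27me3 was gained or lost upon depletion of the long noncoding RNA SETD5-AS1, the H3K27me3 peak list of cells that received a SETD5-AS1 ASO was compared with that of cells that received a negative control ASO (NC). An antisense oligonucleotide (ASO) pairs with a target RNA and lowers its amount. The comparison used 12 of the 30 samples of the series, in 4 groups of 3 replicates: H3K27me3 ChIP and matched input (sheared chromatin without immunoprecipitation) after NC ASO, and the same after SETD5-AS1 ASO. HEK293T, an established line of embryonic kidney origin with the SV40 large T antigen, was used throughout and collected 48 h after transfection, and the control cells also received an oligonucleotide. The header of the SETD5-AS1 peak list names ASO1, taken here to be SETD5-AS1-ASO-1, and the level of the RNA itself was not analysed here.

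The members are the 201322 peaks of both lists, 102921 in NC and 98401 after SETD5-AS1 ASO. An NC peak was kept if it overlapped a SETD5-AS1 ASO peak by at least 1 bp and lost otherwise, and a SETD5-AS1 ASO peak without an NC partner was new. The replicates had been merged before peaks were called, so each group is 1 pooled list and no error between replicates can be given. No test between the groups was made. "Lost", "gained", "higher" and "lower" describe this pair of lists, and intervals cover counting error only. The ChIP of the SETD5-AS1 ASO group was deeper. The genome-wide level (the background in fragments that the peak caller used as its lowest) was 4.43 against 3.85 in NC, and the median peak summit held 20 fragments against 18. At this depth the absence of a single weak peak from a list is imprecise.

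H3K27me3, the trimethylation of lysine 27 of histone H3, is written by EZH1 or EZH2 within Polycomb repressive complex 2 and read by CBX proteins of Polycomb repressive complex 1. It typically covers the CpG-rich promoters of silent developmental regulators, and broad domains over silent chromatin such as the inactive X chromosome. The label was checked against such genes. In NC the promoters of SHH, a hedgehog ligand (fold enrichment 7.26, 80 fragments), and SOX11, a neural transcription factor (6.79, 42 fragments), carried peaks, as they did after SETD5-AS1 ASO (6.07 and 5.15). Here fold enrichment is the number of fragments at the summit over the local input, each with a pseudocount, as the authors' peak caller gave it. None of the 77 genes of cytoplasmic ribosomal proteins had a promoter peak in either list. Of the 39 genes of the HOX clusters, textbook Polycomb targets in many cell types, none had a promoter peak in either list, and the 4 clusters together held 0 NC peaks and 1 SETD5-AS1 ASO peak.

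The ASO sequences are shown because they fix what was targeted. SETD5-AS1 is listed as THUMPD3-AS1 in the annotation used here, at chr3:9391373-9440263 of GRCh37 (the same coordinates as hg19), minus strand, and its start overlaps the first part of SETD5 on the opposite strand. SETD5-AS1-ASO-1 matched the genome perfectly at 1 site, chr3:9432018-9432037 on the plus strand, antisense to an exon of THUMPD3-AS1, and 35 annotated transcripts, all of THUMPD3-AS1, held its complement. The control oligonucleotide had 0 perfect sites.
SETD5-AS1-ASO-1: atcaatgaggatgtcatcac
ASOXNC23 (NC): ttctccgaacgtgtcacgtt

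The targeted locus itself carried no H3K27me3 peak in either list. The nearest NC peak was 134944 bp away from THUMPD3-AS1 and the nearest SETD5-AS1 ASO peak 136838 bp, and 0 peaks of either list lay within 100 kb. SETD5, which encodes a SET domain protein, and THUMPD3 also had no peak over the gene or its promoter. The H3K27me3 lists therefore hold no value at SETD5-AS1 itself.

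PGBD5, a gene derived from a piggyBac transposase, kept its promoter peak at a lower level. The peak, chr1:230560437-230561289 (hg19), lies inside the gene near its start at chr1:230562078 (minus strand). In NC the summit held 45 fragments at a fold enrichment of 3.66, and after SETD5-AS1 ASO 27 fragments at 1.95. The log2 ratio was −0.91 (95% counting interval −1.67 to −0.21). The local input was 3.0 and 3.01 times the genome-wide level, and the fragments over the genome-wide level were lower by nearly as much (log2 −0.94). Of 1005 pairs of promoter peaks that overlap each other and no other peak, 2 had a larger fall in fragments and 33 a larger fall in fold enrichment. PGBD5 was picked out by the study on these samples, so its direction is not independent evidence. After the LINC00641 ASO, the other RNA depleted for H3K27me3, the promoter's strongest peak (3.51, 37 fragments) was another one, chr1:230562558-230563402, upstream of the gene start. The LINC00641 peak at the place of the NC peak, chr1:230560297-230561114, had 2.74 with 30 fragments, between the NC and the SETD5-AS1 ASO value, at a genome-wide level of 3.78. Values given after LINC00641 ASO are those of the strongest peak at the same promoter, which need not overlap the peak in NC.

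The 200 bases around the NC summit of PGBD5, chr1:230560702-230560901 (GRCh37, plus strand), lie outside annotated exons and hold 10 CpG dinucleotides, given in capitals. Of 20098 windows of this length centred on protein-coding gene starts, 62% hold 10 or more.
PGBD5: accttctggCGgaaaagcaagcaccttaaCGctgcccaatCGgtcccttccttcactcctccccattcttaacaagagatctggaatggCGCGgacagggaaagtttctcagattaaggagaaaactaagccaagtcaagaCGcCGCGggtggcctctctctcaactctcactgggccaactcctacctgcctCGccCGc

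Over the genome, 57979 of 102921 NC peaks (56.3%, Wilson 95% interval 56% to 56.6%) were kept after SETD5-AS1 ASO. The other 44942 (43.7%) were lost, and 38857 of 98401 SETD5-AS1 ASO peaks (39.5%, 39.2% to 39.8%) were new. Peaks covered 77.8 Mb in NC, 69.8 Mb after SETD5-AS1 ASO and 64.1 Mb after LINC00641 ASO (86099 peaks). Values of coverage below are to be read against these totals. Lost and new peaks were the shorter and weaker ones. Kept NC peaks had a median length of 691 bp and a median fold enrichment of 3.50, against 399 bp and 3.11 for lost and 388 bp and 2.95 for new peaks. Many lay beside a peak of the other list: 43.0% of lost peaks were within 1 kb of a SETD5-AS1 ASO peak, and 43.0% of new peaks within 1 kb of an NC peak.

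Peak strength and base composition both moved with loss, so gene groups were compared with peaks alike in both. Among NC peaks with the lowest GC content (at most 40.4%), 25% of the weakest 20% were kept and 76.4% of the strongest 20%. Among those with the highest GC content (over 50.1%) the shares were 47% and 86.0%. New peaks mirrored this less steeply, with 47.2% new at the lowest and 37.5% at the highest GC content. For each gene group below, the expected number is therefore the sum over its peaks of the kept (or new) share of all peaks with like −log10 q (10 groups within a list) and GC content (5 groups). The matched ratio is the observed number over this expected number, and 1 means as many as in all peaks alike in strength and GC. Peak length was not matched, although kept peaks were longer and a longer peak more easily overlaps another by 1 bp. The part of strength, GC or length in the loss was not tested.

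NC peaks that overlapped an H3K9me3 peak of the NC cells, a mark of constitutive heterochromatin, were kept more often than expected. Of 9815 such peaks, 72.7% were kept, 1.14 times the matched number. Of 92583 peaks without H3K9me3, 54.7% were kept, 0.983 times the matched number. New peaks were fewer than expected on H3K9me3 (matched ratio 0.862). These ratios are not matched on peak length, whose part was not tested.

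Promoters kept H3K27me3 peaks more often than the genome as a whole. A promoter peak was one within 1 kb of the annotated start of a gene. A gene kept its promoter peak if both lists had one there, whether or not the peaks overlapped. Shares of genes and shares of peaks are therefore unlike measures. Of 20098 protein-coding genes, 1584 (7.88%) had a promoter peak in NC and 1583 after SETD5-AS1 ASO. Of these, 1254 genes (79.2% of the NC genes, Wilson interval 77.1% to 81.1%) had one in both lists, 330 (20.8%) lost it and 329 (20.8% of the genes with one after SETD5-AS1 ASO) gained one. Losses and gains were nearly equal in number, 0.997 gained per gene that lost. Of 18592 lncRNA genes 1199 (6.45%) had one in NC. Of these, 282 (23.5%) lost it, and 311 of 1228 after SETD5-AS1 ASO (25.3%) were gained.

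Counted by peak, the difference from the 56.3% kept over all NC peaks was much smaller after matching on strength and GC. Of 1551 NC peaks with the summit at a protein-coding promoter, 1135 were kept (73.2%, 70.9% to 75.3%) against 1078 expected, a ratio of 1.05. Of 1532 SETD5-AS1 ASO peaks there, 412 were new (26.9%, 24.7% to 29.2%) against 461.2 expected, a ratio of 0.893. For LINC00641, which shares the NC list, the kept ratio was 1.11 and the new ratio 1.07.

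Genes on chromosome X and on autosomes differed in balance. On X, 280 of 869 protein-coding genes had a promoter peak in NC and 324 after SETD5-AS1 ASO, with 50 lost and 94 gained (1.88 gained per loss). On autosomes 280 were lost and 235 gained (0.839). After LINC00641 ASO, 365 genes on X had one, with 34 lost and 119 gained, and on autosomes 226 were lost and 296 gained. Because both comparisons use the same NC list, an X-linked promoter that NC missed counts as gained in both.

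The 6 strongest promoter peaks that were lost were at NOTUM, ADRA1D, FNDC5, BCL11B, VSTM2L and SAMD3. NOTUM, a secreted enzyme that inactivates WNT ligands, had 60 fragments at a fold enrichment of 5.42 in NC and no promoter peak after either ASO. Its NC peak, chr17:79917995-79918717, touched the window of the gene start (79919716) only at its edge. Coverage of the NOTUM gene was 15.02% in NC, 11.76% after SETD5-AS1 ASO and 16.4% after LINC00641 ASO. ADRA1D, the alpha-1D adrenergic receptor, had 38 fragments at 6.42 in NC and none after SETD5-AS1 ASO, but 25 fragments at 4.04 after LINC00641 ASO.

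FNDC5, the precursor of irisin, had 45 fragments at 4.61 in NC, and BCL11B, a zinc finger transcription factor of T cells and neurons, 47 at 3.97. VSTM2L had 34 at 4.77. These 3 genes had no promoter peak after SETD5-AS1 ASO, whereas after LINC00641 ASO their fold enrichments were 3.38, 5.34 and 5.13. The NC peaks of FNDC5, chr1:33336698-33337200, and BCL11B, chr14:99739381-99740745, lay mostly outside the windows of their gene starts (33338083 and 99738534). Their summits were outside these windows too. SAMD3, with 37 fragments at 4.29 in NC, had no promoter peak after either ASO. The SAMD3 peak, chr6:130687547-130689171, also touched the window of the gene start (130686570) only at its edge. Coverage of that gene was 0.256% in NC and 0.535% after SETD5-AS1 ASO. So 4 of the 6 strongest losses still had a promoter peak in the LINC00641 list.

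Of the 6 strongest promoter peaks that were gained, 4 were on X. NXT2, a nuclear RNA export factor, had no promoter peak in NC, 35 fragments at 5.46 after SETD5-AS1 ASO and 28 at 4.15 after LINC00641 ASO. The cancer-testis genes CT47A2 and CT47A5 had 35 fragments at 4.83 and 36 at 4.23 after SETD5-AS1 ASO. DCAF12L1 had 31 at 5.01, but coverage of its gene body was 21.3% in NC and 13.3% after SETD5-AS1 ASO. The CT47A5 peak, chrX:120097674-120099220, touched the window of the gene start (120100202) only at its edge.

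The other 2 were autosomal. SAMD14 had 44 fragments at 3.94, and IGFBP7, an insulin-like growth factor binding protein, 28 at 5.22. All 6 also had a promoter peak after LINC00641 ASO, at fold enrichments from 2.25 (CT47A5) to 4.20 (SAMD14).

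Sequences at the summits of the promoter peaks with the highest −log10 q among those lost and gained are shown as examples of how far CpG content varied. Lost and gained refer here to the promoter window, not to overlap of peaks. Both summits lie more than 1 kb from the gene start, outside this window. The 200 bases of NOTUM in NC, chr17:79918261-79918460, hold 28 CpG dinucleotides (78.5% GC), and those of NXT2 after SETD5-AS1 ASO, chrX:108777310-108777509, hold 0 (41.0% GC). Both are on the plus strand of GRCh37, outside annotated exons, with CpG in capitals. Neither class was uniform, since the gained peaks of SAMD14 and IGFBP7 hold 16 and 20 CpG and the lost peak of FNDC5 holds 7.
NOTUM, lost: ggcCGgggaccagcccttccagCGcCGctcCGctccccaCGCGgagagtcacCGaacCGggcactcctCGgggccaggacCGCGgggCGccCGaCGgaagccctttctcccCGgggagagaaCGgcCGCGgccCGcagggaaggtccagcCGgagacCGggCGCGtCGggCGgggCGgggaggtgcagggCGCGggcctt
NXT2, gained: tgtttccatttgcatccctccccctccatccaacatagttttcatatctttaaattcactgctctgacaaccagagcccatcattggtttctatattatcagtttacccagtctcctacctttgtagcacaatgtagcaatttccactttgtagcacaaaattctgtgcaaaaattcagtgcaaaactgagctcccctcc

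Where a promoter peak of each list overlapped the other and no further peak, fold enrichment was slightly lower after SETD5-AS1 ASO. Over 1005 such pairs the median log2 ratio was −0.10 (quartiles −0.39 and 0.18), below 0 on 20 of 23 chromosomes (SD over chromosomes 0.10). Over all 41115 pairs of this kind in the genome it was −0.07, so the shift was also present away from promoters. The median was −0.02 over 149 pairs on X and −0.11 over 856 on autosomes. At 126 promoter pairs (12.5%) fold enrichment was lower by 1.5-fold or more and at 54 (5.37%) higher.

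The local input moved with these differences. Of the 126 lower pairs, 22 also had 1.5-fold fewer fragments over the genome-wide level, and 54 had a local input 1.5-fold higher. Of the 54 higher pairs, 4 had 1.5-fold more fragments and 34 a local input 1.5-fold lower. On fragments alone, 48 pairs (4.78%) were lower and 10 (0.995%) higher by 1.5-fold or more. The part of the input libraries in each difference was not tested.

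Of the 4 largest falls in fold enrichment among pairs with at least 30 fragments in both lists, none was as large in fragments. FSTL4, a follistatin-like protein, had 7.0 in NC and 3.05 after SETD5-AS1 ASO (log2 −1.20, −1.74 to −0.66), with 58 and 61 fragments and a local input of 1.93 and 4.37 times the genome-wide level. KCNK9, a potassium leak channel, had 9.01 and 4.02 with 70 and 67 fragments (input 1.79 and 3.59 times).

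IHH, the Indian hedgehog ligand, had 6.63 and 3.09 with 41 and 34 fragments, and HTR1B, a serotonin receptor, 5.94 and 2.79 with 33 and 33. In fragments over the genome-wide level the 4 log2 ratios were −0.13, −0.27, −0.47 and −0.20. IHH was the one with the largest fall in fragments of the 4.

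The 4 largest rises were of the same kind. CALCR, the calcitonin receptor, had 2.48 in NC and 5.51 after SETD5-AS1 ASO (log2 1.15, 0.44 to 1.89) with 32 and 38 fragments. HS3ST4, a heparan sulfate sulfotransferase, had 4.13 and 8.04 with 37 and 52 fragments, the largest gain in fragments of these (log2 0.29). ADRA2A, an adrenergic receptor, had 2.68 and 4.96 with 30 and 35 fragments, and CCDC85A 2.73 and 5.05 with 32 and 33. The local input at CALCR was 3.20 times the genome-wide level in NC and 1.37 times after SETD5-AS1 ASO.

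**Figure D1:**
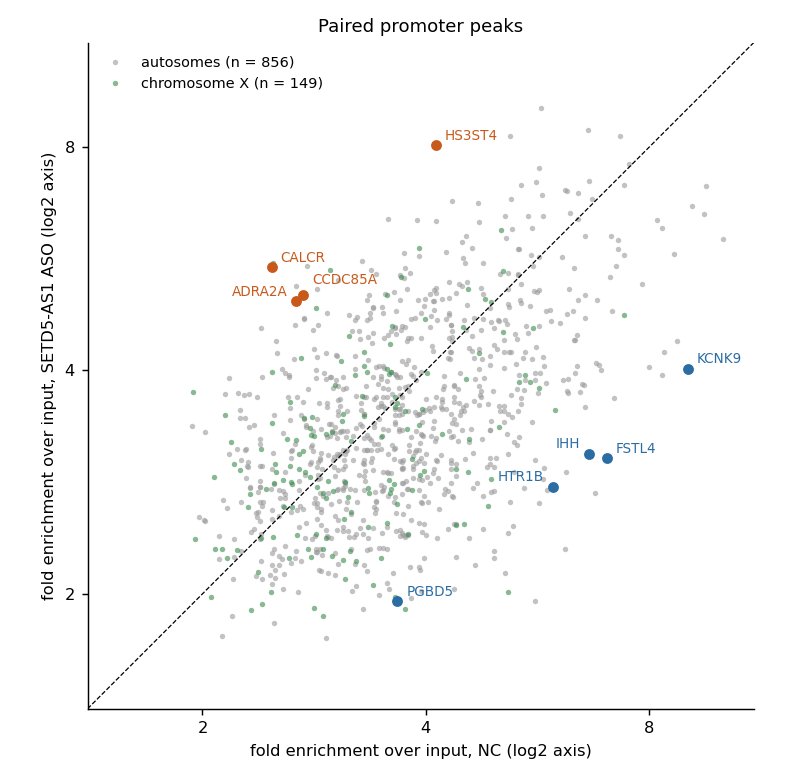
Fold enrichment over input at the 1005 pairs of promoter peaks that overlap each other and no other peak. NC is on the x axis and SETD5-AS1 ASO on the y axis, both on log2 axes. Points are autosomal (n = 856) or X-linked (n = 149) pairs, the dashed line marks equal values, and the genes described are named, with PGBD5 at 3.66 and 1.95. The cloud lies slightly below the line (median log2 ratio −0.10).

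Gene groups were next described by their promoters and by all peaks with a summit in a member or within 5 kb of it. Of 25 groups, 19 held at least 20 NC peaks. Their matched kept ratio was below 1 in 11 and 1 or more in 8 (median 0.991), and their matched new ratio was below 1 in 6 and 1 or more in 13 (median 1.06). The lowest kept ratios belonged to the zinc finger genes of chromosome 19 and the clustered protocadherins.

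**Figure D2:**
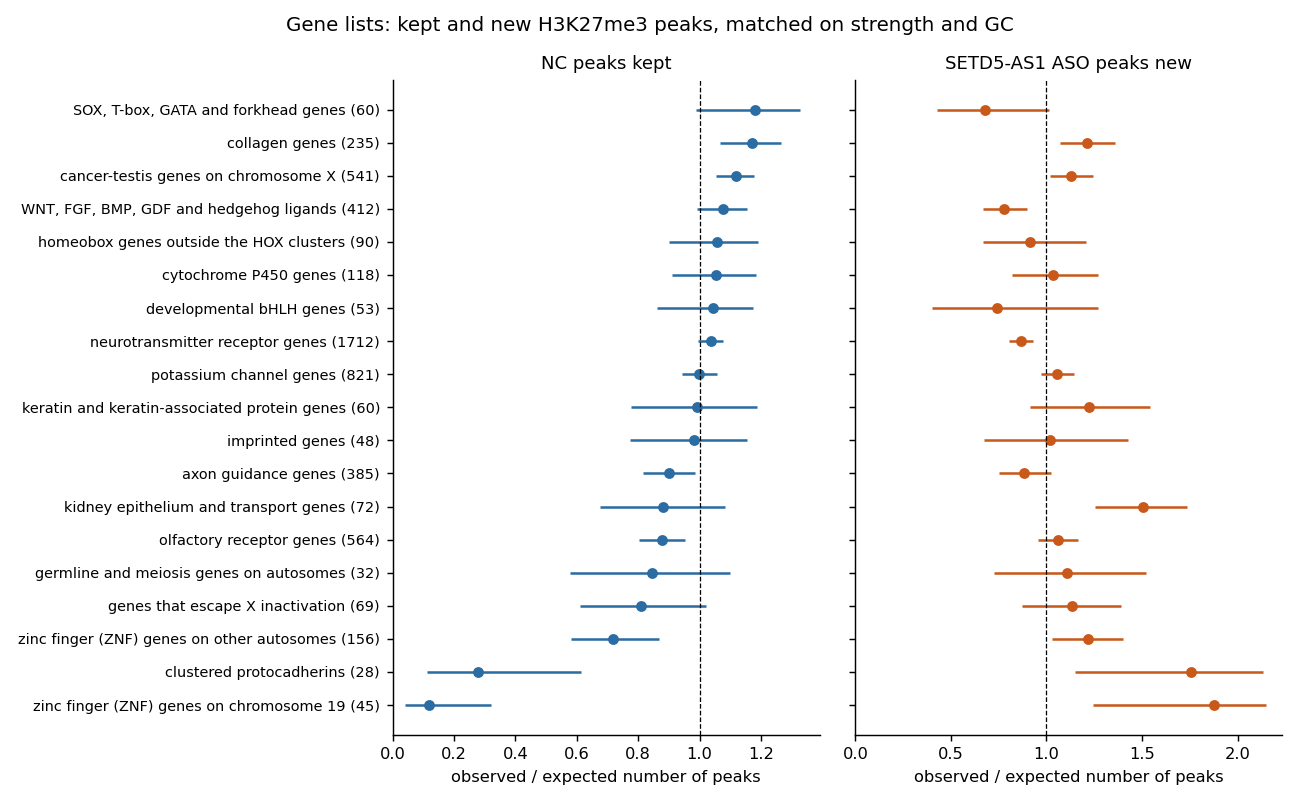
Observed over expected number of NC peaks kept (left) and SETD5-AS1 ASO peaks new (right) for the 19 gene groups with at least 20 NC peaks, whose number is in parentheses. Points are matched ratios, bars the Wilson 95% interval of the observed share over the expected one, and the dashed line marks 1. Zinc finger genes of chromosome 19 (0.119) and clustered protocadherins (0.279) lie far to the left among kept peaks.

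Of 137 homeobox genes outside the HOX clusters, 19 had a promoter peak in NC and 20 after SETD5-AS1 ASO. Of these, 3 of 19 lost and 4 of 20 gained it, near the 20.8% lost and 20.8% gained over all protein-coding genes with one, and 62 of their 90 NC peaks were kept (matched ratio 1.06). ONECUT3 had a fold enrichment of 6.54 in NC and 6.06 after SETD5-AS1 ASO (70 and 76 fragments), and NKX6-2, a factor of the ventral neural tube, 6.09 and 5.69 (53 and 61 fragments). Among losses were DBX1 (3.48 in NC, 26 fragments) and SATB1 (3.50, 16 fragments). EMX1 (2.56, 30 fragments) and EVX1 (2.73, 24 fragments) were among gains. Of 9 PAX genes, PAX7, of the muscle lineage, lost its peak (3.23, 34 fragments) and PAX4 kept it (3.47 and 3.93).

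SOX, T-box, GATA and forkhead genes kept 45 of 60 NC peaks (matched ratio 1.18), and 15 of their 64 SETD5-AS1 ASO peaks were new (0.677). At promoters 2 of 12 were lost (FOXI3 and FOXO6, at 2.49 and 2.21 in NC) and 3 of 13 gained, FOXR2 (3.25) and FOXB1 (2.63) among them. Both counts were near the 20.8% lost and 20.8% gained over all protein-coding genes with a promoter peak. SOX21 had 5.22 in NC and 3.14 after SETD5-AS1 ASO with 58 and 63 fragments. Developmental bHLH genes kept 40 of 53 peaks (1.04). NEUROD1, a neuronal differentiation factor, kept its promoter peak (5.78 and 5.16), TCF24 (3.64) and OLIG3 (3.23) lost theirs, and OLIG1, an oligodendrocyte factor, gained one (2.77).

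WNT, FGF, BMP, GDF and hedgehog ligands kept 254 of 412 NC peaks (1.08), and 120 of 389 SETD5-AS1 ASO peaks were new (0.777). SHH had 7.26 and 6.07 with 80 and 86 fragments. WNT3A had 6.54 and 4.42 with 78 and 68 fragments, at summits in peaks that do not overlap. WNT4 (3.10) and WNT11 (2.07) lost a promoter peak, and BMP3 (2.69) and WNT5B (2.58) gained one. Both ratios of this group rest on its X-linked members: on autosomes alone the kept ratio was 0.789 and the new ratio 1.08.

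The 101 neurotransmitter receptor genes held 1712 NC peaks, the most of the 25 groups, of which 992 were kept (1.04), and 480 of 1470 SETD5-AS1 ASO peaks were new (0.865). At promoters 47 had a peak in NC and 42 after SETD5-AS1 ASO, with 6 of 47 lost and 1 of 42 gained. The shares over all protein-coding genes with a promoter peak were 20.8% lost and 20.8% gained. GRIK3, a kainate receptor subunit, had 7.39 and 7.43 with 61 and 59 fragments, in peaks that do not overlap. The X-linked AMPA receptor subunit GRIA3 had 8.81 and 6.37 with 51 and 52 fragments. ADRA1D and GRIN1, an NMDA receptor subunit (4.15, 29 fragments), lost their promoter peak and GRM6, a glutamate receptor of the retina, gained one (2.36).

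Potassium channel genes kept 482 of 821 peaks, where 482.2 were expected. At promoters 1 of 32 was lost (KCNG2, 3.09) and 2 of 33 gained (KCNK15 at 2.50 and KCNK6 at 2.74). Over all protein-coding genes with a promoter peak these shares were 20.8% and 20.8%. KCNK10 had 8.33 in NC and 3.94 after SETD5-AS1 ASO with 62 and 47 fragments (log2 −0.60 in fragments over the genome-wide level). Axon guidance genes kept 201 of 385 peaks (0.900), and EFNA3 and SEMA5A kept their promoter peaks at 3.41 and 4.45, from 5.97 and 6.67 in NC. ROBO4 (3.07) and UNC5B (2.36), both guidance receptors, lost a promoter peak, and SEMA7A, a semaphorin, gained one (2.90, 48 fragments).

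Zinc finger genes of chromosome 19 lost nearly all of their few peaks. These genes, mostly KRAB zinc finger genes in clusters, are a known territory of H3K9me3. In NC, 246 genes held 45 H3K27me3 peaks, of which 3 were kept (6.67%, 2.29% to 17.9%) against 25.2 expected, a ratio of 0.119. After SETD5-AS1 ASO there were 12 peaks, of which 10 were new against 5.32 expected. The 5 promoters with a peak in NC lost it, against 20.8% over all protein-coding genes with one. ZNF93 (3.71, 17 fragments) and ZNF667 (3.50, 16 fragments) were the strongest of these, and ZNF578 gained one (3.13, 16 fragments).

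These peaks were weak, with a median of 16 fragments. In the NC cells 22 of the 45 overlapped an H3K9me3 peak, 21 of them among the 42 lost, and H3K9me3 peaks covered 22.3% of these gene bodies. H3K27me3 peaks covered 0.188% in NC, 0.0602% after SETD5-AS1 ASO and 0.127% after LINC00641 ASO, which kept 7 of the 45 (ratio 0.272). Zinc finger genes of other autosomes kept 59 of 156 peaks (0.718), against 51 after LINC00641 ASO. Among them ZNF804B (4.88 and 4.19) and ZNF469 (3.64 and 4.81) kept a promoter peak and ZNF423 (2.84) and ZNF521 (3.0) lost one.

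The clustered protocadherins, neuronal adhesion genes in 3 tandem arrays on chromosome 5, showed a like pattern. Over their 53 genes, 4 of 28 NC peaks were kept (14.3%, 5.70% to 31.5%) against 14.4 expected (ratio 0.279), and 11 of 15 SETD5-AS1 ASO peaks were new (1.76). LINC00641 ASO kept 5 of the 28 (0.369). At promoters 6 genes had a peak in NC and 4 after SETD5-AS1 ASO. PCDHB1 had 3.64 and 4.58 with 28 and 33 fragments. PCDHAC1 (3.11) and PCDHGA7 (2.78) lost a peak, and PCDHB14 (3.37) and PCDHB12 (3.68) gained one. PCDHGA5 had one in each list, at 4.31 and 2.29, that do not overlap.

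Peaks covered 2.31% of these gene bodies in NC, 1.32% after SETD5-AS1 ASO and 0.667% after LINC00641 ASO. H3K9me3 covered 26.2% in NC. Over the whole cluster, chr5:140165721-140892544 (726.8 kb, hg19), NC had 40 peaks on 21.8 kb, SETD5-AS1 ASO 20 on 10.7 kb and LINC00641 ASO 14 on 5.98 kb, while H3K9me3 had 182 peaks in NC. Protocadherin genes share long similar stretches, so reads can be placed in another copy, and neither matching nor the lists address this.

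**Figure D3:**
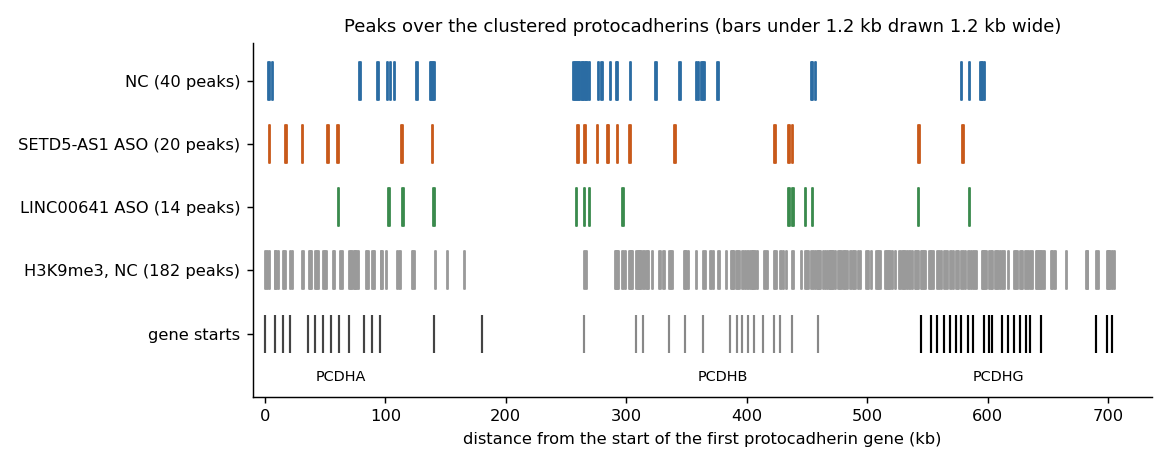
Peaks over the protocadherin cluster, as distance in kb from the start of its first gene, 1 row for each list (H3K27me3 in NC, after SETD5-AS1 ASO and after LINC00641 ASO, and H3K9me3 in NC), with gene starts in the bottom row. NC has 40 peaks, with a dense stretch near the first PCDHB gene, against 20 after SETD5-AS1 ASO and 14 after LINC00641 ASO.

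Olfactory receptor genes exchanged promoter peaks more often than all genes, counted without matching. Of 414 genes, 100 had a promoter peak in NC and 101 after SETD5-AS1 ASO. Of these, 35 were lost and 36 gained, against 20.8% each over all protein-coding genes with one. Their NC peaks were weak, with a median of 17 fragments against 26 at protein-coding promoters. After matching, 271 of 564 NC peaks kept gave a ratio of 0.878, and 218 of 498 SETD5-AS1 ASO peaks new gave 1.06. OR1N1 (5.77 and 4.06) and OR10H1 (4.49 and 3.16) kept theirs, OR56A1 (4.39, 25 fragments) and OR1J2 (4.37, 21 fragments) lost and OR8H1 (3.87, 20 fragments) and OR8G1 (3.57, 21 fragments) gained one. Coverage of the gene bodies was 7.64% in NC and 6.21% after SETD5-AS1 ASO.

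Keratin and keratin-associated protein genes, of hair and epidermis, lost 7 of 20 promoter peaks, and 5 of 18 after SETD5-AS1 ASO were gained, where 20.8% of all protein-coding genes with a peak lost and 20.8% gained one. KRT1 lost one (4.49, 23 fragments), KRTAP13-4 gained one (4.23, 22 fragments), and KRTAP9-9 (4.6 and 3.16) and KRTAP9-3 (4.23 and 3.93) kept theirs. Cytochrome P450 genes lost 4 of 11, and 2 of 9 were gained. CYP26B1, which degrades retinoic acid, had 7.96 and 6.12, and CYP24A1, which degrades vitamin D, 3.93 and 5.84 with 40 and 41 fragments. CYP2A6, a drug-metabolizing enzyme of liver, lost a weak peak (3.11, 22 fragments).

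Collagen genes both kept and gained more peaks than expected. They kept 162 of 235 NC peaks (1.17), and 141 of 301 SETD5-AS1 ASO peaks were new (1.21), with coverage of 3.10% in NC, 3.85% after SETD5-AS1 ASO and 3.39% after LINC00641 ASO. None of 10 promoter peaks in NC was lost, against 20.8% over all protein-coding genes with one. COL4A3 and COL4A4, which share a bidirectional promoter, gained the same peak (2.71, 25 fragments). COL15A1 had 6.90 and 4.01 with 54 and 53 fragments. The X-linked COL4A6 is part of this group, and on autosomes alone the new ratio was 0.845.

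Genes of kidney epithelium and transport, the tissue the line came from, held 72 NC peaks, of which 35 were kept (0.879), while 55 of 89 SETD5-AS1 ASO peaks were new against 36.5 expected (1.51). The LINC00641 list also held more new peaks than expected here (1.59). UMOD, the uromodulin of the loop of Henle, had a promoter peak in both lists (5.36 and 3.91), as did the sodium channel subunit SCNN1G (4.45 and 3.53). HSD11B2 (3.68) and SLC26A4 (2.86) lost one and TRPV5 gained one (2.53).

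Among genes of the Polycomb system itself, 1 of 33 had a promoter peak in each list. CBX8, a subunit of Polycomb repressive complex 1, had 40 fragments at 2.90 in NC and no promoter peak after SETD5-AS1 ASO, but one after LINC00641 ASO (2.27, 39 fragments). Among imprinted genes, CDKN1C, a cell cycle inhibitor, lost its peak (2.08, 25 fragments), and GNAS (2.53) and PLAGL1 (2.29) gained one, and 32 of 48 peaks were kept (0.983).

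Germline and meiosis genes of autosomes had 2 promoters in each list (ZP4 at 3.41 and 4.03, TEKT1 at 3.22 and 2.33, both in peaks that do not overlap) and kept 17 of 32 peaks (0.844). The 19 genes that escape X inactivation had no promoter peak in either list and kept 31 of 69 peaks (0.811). The 64 replication-dependent histone genes had no promoter peak in either list, and 7 CDK inhibitor genes had 1, CDKN1C, in NC and 0 after SETD5-AS1 ASO.

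Cancer-testis genes on X, silent in somatic tissue, gained promoter peaks in number. Of 110 genes, 34 had one in NC, 59 after SETD5-AS1 ASO and 69 after LINC00641 ASO. After SETD5-AS1 ASO 29 gained and 4 lost one, where 94 were gained and 50 lost on the whole of X. The other 759 X-linked protein-coding genes gained 65 and lost 46. MAGEA2 (4.76 and 4.48) and MAGEC1 (5.08 and 5.44) had a peak in both lists, GAGE10 (2.88) and SPANXN5 (3.37) lost one.

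These genes lie in tandem arrays of near-identical copies, where a read that fits several copies is placed in 1 of them, so gains of single copies are uncertain. In 6 array families split off after the values were seen (CT47A, CT45A, GAGE, XAGE, SPANX and SSX), 64 genes went from 20 to 36 with 3 lost and 19 gained. The other 46 listed genes went from 14 to 23 with 1 lost and 10 gained, and to 32 after LINC00641 ASO. Of 12 CT47A genes 4 had one in NC, 9 after SETD5-AS1 ASO and 12 after LINC00641 ASO. Coverage of the CT47A genes was 7.47%, 24.3% and 7.91%, with 43.0% under H3K9me3 in NC. Of 13 MAGEA genes 8, 12 and 13 had one.

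At the level of all peaks, cancer-testis genes kept 378 of 541 (1.12) and 240 of 628 were new (1.13). Coverage of their gene bodies was 26.0% in NC, 28.0% after SETD5-AS1 ASO and 27.3% after LINC00641 ASO.

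Chromosomes differed in how many peaks they kept at equal strength and GC. X held 28731 NC peaks, more than any autosome, and kept 1.1 times the expected number, against 0.963 over autosomes together. The lowest kept ratios were on chromosomes 13 (0.629), 21 (0.694) and 18 (0.789), which had 313, 484 and 491 NC peaks, the fewest of all. New peaks were most in excess on 13 (1.53), 18 (1.35), 6 (1.30) and 4 (1.29) and fewest on 5 (0.848) and 17 (0.854). On 21 the number of peaks was 339 after SETD5-AS1 ASO against 484 in NC.

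**Figure D4:**
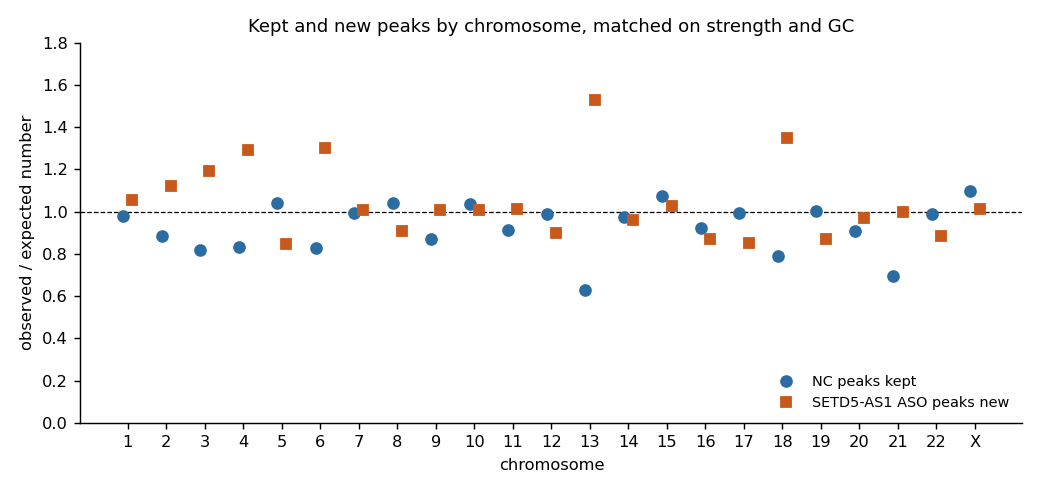
Observed over expected number of NC peaks kept (circles) and of SETD5-AS1 ASO peaks new (squares) on each chromosome, matched on strength and GC content. The dashed line marks 1. Chromosome 13 is lowest among kept (0.629) and highest among new (1.53).

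Slightly more gene bodies lost coverage than gained it, and the whole list also covered less after SETD5-AS1 ASO (69.8 Mb against 77.8 Mb in NC). Coverage by peaks was higher by 10 percentage points or more at 206 of 20098 protein-coding genes (1.02%) and lower by as much at 237 (1.18%), and at 200 (1.08%) and 335 (1.8%) lncRNA genes. The genes with the largest losses in kb, a ranking that favours long genes, were RBFOX1, CSMD1, DPP10 and PTPRT. RBFOX1, a neuronal splicing factor, had 853.4 kb under peaks in NC (34.5% of the gene), 583.8 kb (23.6%) after SETD5-AS1 ASO and 698.3 kb (28.2%) after LINC00641 ASO.

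CSMD1, a complement-regulatory membrane protein, had 13.6% and 8.94%, DPP10, a regulator of potassium channels, 19.2% and 12.8%, and PTPRT, a receptor tyrosine phosphatase, 25.2% and 17.3%. After LINC00641 ASO these were 9.94%, 11% and 20.3%, also below NC, as was the coverage of that whole list (64.1 Mb against 77.8 Mb). Their promoter peaks were kept, at 3.91 and 5.71 (CSMD1), 3.04 and 3.25 (DPP10) and 5.03 and 5.28 (PTPRT).

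Among the largest gains, COL4A6 and FRMPD3 were on X. COL4A6, a basement membrane collagen, had 41.0 kb under peaks in NC (14.4%) and 74.8 kb (26.4%) after SETD5-AS1 ASO. FRMPD3 had 34.9% and 45%. AGBL1 on chromosome 15 had 13% and 15.7%. After LINC00641 ASO the values of COL4A6, FRMPD3 and AGBL1 were 18.7%, 47.3% and 11.3%, so COL4A6 and FRMPD3 were above and AGBL1 below NC in that list.

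**Figure D5:**
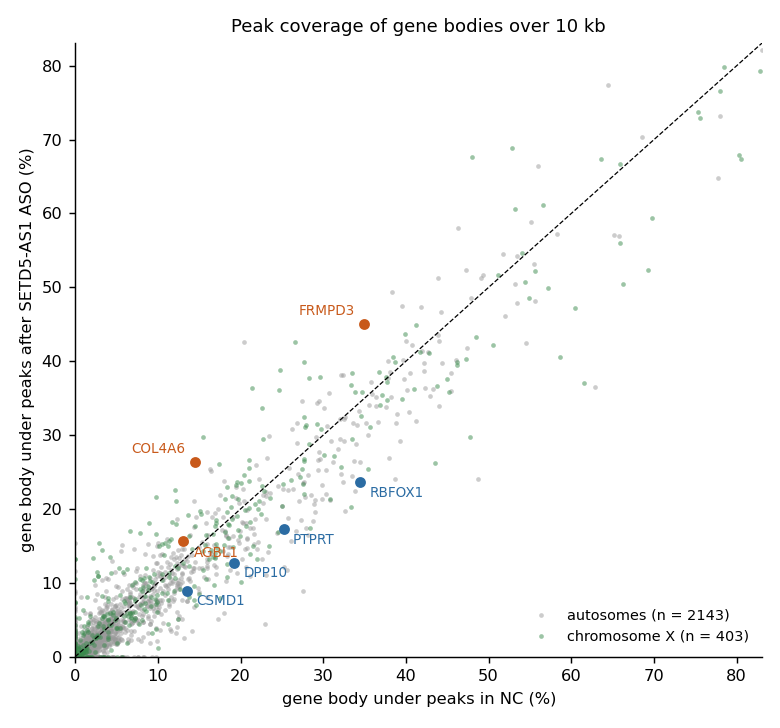
Share of each protein-coding gene body over 10 kb that lay under H3K27me3 peaks (%), NC on the x axis and SETD5-AS1 ASO on the y axis, for genes with a peak in either list. Points are genes on autosomes or X, the dashed line marks equal values, and the genes described for a large loss or gain in length are named (RBFOX1 at 34.5% and 23.6%, COL4A6 at 14.4% and 26.4%).

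The strongest single lost and new peaks lay away from promoters, and some sat on tandem repeats. By −log10 q, the strongest lost peak with a local input of at most 5 times the genome-wide level was in FMN2, an actin nucleator (chr1:240348231-240348501), with 80 fragments at 9.21 in NC and no SETD5-AS1 ASO peak within 224170 bp, while the LINC00641 list had it at 9.30. The next was intergenic on chromosome 8, 34927 bp from HGSNAT, with 56 fragments at 11.7.

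The strongest new peak was in CYP4F11 (chr19:16042986-16043306), with 89 fragments at 9.37, 992 bp from an NC peak and in no LINC00641 peak. The next, both intergenic, were chr5:174293717-174294300 (42 fragments at 6.52) and chrX:39189207-39189672 (35 fragments at 6.63).

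The 200 bases at the summits of FMN2 and CYP4F11 show the repeats. Shifted against itself by 57 and 20 bases, the window matched itself at 83.9% and 96.1% of positions, and that of the new X peak at 32.3% at best. The windows are chr1:240348269-240348468, chr19:16043067-16043266 and chrX:39189366-39189565 (GRCh37, plus strand, outside annotated exons), with CpG in capitals.
FMN2, lost: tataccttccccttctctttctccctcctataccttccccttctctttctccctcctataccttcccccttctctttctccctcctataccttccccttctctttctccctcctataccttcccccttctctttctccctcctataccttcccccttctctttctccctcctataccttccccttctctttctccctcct
CYP4F11, new: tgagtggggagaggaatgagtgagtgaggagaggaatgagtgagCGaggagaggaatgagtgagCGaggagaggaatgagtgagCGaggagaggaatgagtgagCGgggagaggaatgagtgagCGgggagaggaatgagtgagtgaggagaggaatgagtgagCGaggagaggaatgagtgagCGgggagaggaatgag
X intergenic, new: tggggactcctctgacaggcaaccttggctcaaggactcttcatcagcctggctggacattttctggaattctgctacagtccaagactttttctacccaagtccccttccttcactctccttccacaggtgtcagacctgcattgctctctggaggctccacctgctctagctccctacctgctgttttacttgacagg

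Such repeats were rare in all classes. With a best self-match of at least 80% at a shift of 5 to 60 bases, 0.119% of lost, 0.267% of kept NC and 0.181% of new peaks counted as tandem repeats. Among the 20 strongest peaks of each class with a local input of at most 5 times the genome-wide level, 5 of lost, 4 of kept NC and 2 of new peaks did, so repeats were frequent among the strongest peaks whether kept or lost.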

How the data were processed

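H3K27me3 ChIP and input libraries of HEK293T cells were grouped by sample titles. The H3K27me3 list after LINC00641 ASO and the H3K9me3 list of NC cells were set beside them. The authors' steps are given per the study's methods and the submitters' processing notes. They used FastQC 0.11.8 on the reads, Cutadapt 3.3 for trimming and Bowtie2 2.4.2 for alignment (hg19). PCR duplicates were removed with GATK. Replicates were merged, and MACS2 2.2.7.1 called peaks on fragments against the merged input. No mapping quality filter is stated. The authors deposited, for each peak, its fold enrichment (a ratio), its −log10 p-value and −log10 q-value (lowest 1.30) and its summit offset.

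Fragments at the summit and local input were solved from fold enrichment and −log10 p. A whole number resulted for 100% of peaks in both lists (tolerance 0.005 in −log10 p). Genes came from GENCODE 44 lifted to GRCh37. A gene's promoter was 1 kb on each side of its start, and a peak counted for a group within 5 kb of a member. Expected numbers came from 10 groups of −log10 q by 5 groups of GC content. Named genes were PGBD5 and the targeted locus, the 6 strongest promoters lost and gained, the 4 largest changes of fold enrichment (at least 30 fragments in both lists) and of gene-body length each way, and up to 6 per group, with local input up to 5 times the genome-wide level. A few genes and 1 peak that these rules pick are not reported here. The members, gene groups and rules were chosen with earlier results of these data known. Gene groups are by symbol, and POU factors are not in the homeobox group. Repeat scores and the split of cancer-testis families were added after the values were seen.

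Without replicates no test was made. Intervals are Wilson 95% (shares) or exact binomial (ratio of fragments at 2 summits, input taken as known). They treat peaks or fragments as independent. The computation was checked on simulated data. H3K9me3 peaks after LINC00662 ASO were not used here. Python 3.11.15 with scipy 1.17.1 and pysam 0.24.0 was used.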

Additional observations from a re-analysis of the deposited data

How the results depend on the processing

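No paired analysis was possible because each group was pooled into 1 list before peak calling, and for the same reason no replicate could be left out. The overlap asked for and the strength of the peaks set the shares. With at least 50% of a peak covered, 41.1% of NC peaks were kept, 52.6% of SETD5-AS1 ASO peaks were new and 66.5% of genes kept a promoter peak. Among peaks with −log10 q of at least 5 these were 79.4%, 18.5% and 93.5%, and the matched new ratio at promoters was 0.655. With equal numbers of the strongest peaks 57.0% were kept and 41.1% new, with peaks within 1 kb merged 40.7% were new, and on autosomes 55.0% were kept. Promoter windows of 2 kb gave 81.5% of genes that kept a peak, and any transcript start 81.4%. Matched on −log10 q alone, the kept ratio at promoters was 1.1. In all, 57 of 71 values of the main results stayed within their interval, their SD over chromosomes or 1.5 times, and 14 moved beyond it. A change of side was recorded only for the promoter pairs and the matched promoter ratios, where none occurred.

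Of 262 alternative values of the 38 ratios of gene groups, 27 (of 14 ratios) lay on the other side of 1. In 23 of these the interval of the reported ratio included 1. In the other 4 it did not: on autosomes the new ratio of WNT, FGF, BMP, GDF and hedgehog ligands (1.08) and of collagen genes (0.845), and among peaks with −log10 q of at least 5 the kept ratio of axon guidance genes (1.01) and the new ratio of zinc finger genes on chromosome 19 (0, with 1 peak left). The ligands' kept ratio on autosomes (0.789) and the kept ratio of genes that escape X inactivation at −log10 q of at least 5 (1.32) were also on the other side. The kept ratio ranged from 0 to 0.131 for zinc finger genes on chromosome 19 and from 0.0944 to 0.443 for protocadherins. The promoter pairs stayed below 0, at −0.13 on fragments over the genome-wide level. The cause of these differences was not tested. The depth of 18 to 20 fragments at the median summit limits what the absence of 1 peak can show, and the design gives no error between replicates.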

Other observations

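Grouping protein-coding genes by the letters that start their symbol gave 105 families with at least 40 NC peaks, ranked here by the matched kept ratio without a test. The lowest was the DLG family of synaptic scaffold proteins, with 10 of 45 NC peaks kept against 21.2 expected (0.472) and 32 of 44 SETD5-AS1 ASO peaks new (1.67). CNTN, the contactins of axons, kept 13 of 45 (0.559), and ANO, the anoctamin channels and scramblases, 12 of 44 (0.623). The GRM family of metabotropic glutamate receptors kept 124 of 318 (0.740), although all neurotransmitter receptor genes together kept 1.04 times the expected number.

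At the other end stood GUCY, the guanylate cyclases, with 49 of 56 kept (1.5) and all of these peaks on X, RTL, the retrotransposon Gag-like genes (185 of 231, 1.39, with 98.7% on X), and PAK kinases (1.37, with 93.2% on X). Away from X, the GIMAP immune GTPases, a gene cluster, kept 34 of 45 (1.35). The 19 genes whose symbol starts with POU include POU2AF1 and POU2AF2 beside the POU transcription factors. They kept 51 of 67 NC peaks (1.28), of which 5.97% were on X, and 9 of 71 SETD5-AS1 ASO peaks were new (0.411).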
